A study of Mus musculus with 24 samples.

Results

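Wild type mouse retinal endothelial cells on Matrigel were compared with wild type cells on gelatin, over every gene that the arrays measure. The arrays were chosen from the labels alone, as the wild type cultures grown without other cells. They are 3 arrays on Matrigel and 3 on gelatin, 6 of the 24 arrays of a study of frizzled-4 signalling in these cells. All groups used here are adult cells of mixed gender on a C57Bl6/129 mixed background, purified from retina. Their source animals were crossed to a line with a temperature-sensitive form of the SV40 large T antigen behind an interferon gamma responsive H2Kb promoter, a conditional oncogene that lets primary cells divide. All were grown on at 33 °C over a coat of 1% gelatin before the experiment, and RNA was made from cells at 37 °C without interferon gamma. Wild type Matrigel cells had been kept for 24 h in DMEM with 1% fetal bovine serum (FBS), were then detached with trypsin, and spent 6 h on a layer of Matrigel in the same medium. For wild type gelatin cells no low-serum period or replating is given. Effects of Matrigel, of low serum, and of detachment and time after plating therefore cannot be told apart. Cells that lack frizzled-4 (Fz4-/-), also with 3 arrays on Matrigel and 3 on gelatin, are used to test whether the response differs between the genotypes. They also share in the estimate of spread behind the wild type p-values.

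Matrigel is an extract of basement membrane from a mouse tumour, rich in laminin and collagen IV, on which endothelial cells draw together into cords. Serum carries growth factors and lipids that act through ERK and AKT kinases and through the actin cytoskeleton. Actin in turn sets the activity of serum response factor (SRF) and of the co-activators YAP and TAZ, and AKT holds FoxO transcription factors out of the nucleus.

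Each value is a log2 signal of the deposited data, and for each gene the probe set of highest mean signal (24 arrays) was used. Array medians were 5.08 to 5.10 on Matrigel and 5.02 to 5.06 on gelatin. The SD over genes of the difference between replicates 2 and 3 was 0.170 on Matrigel and 0.180 on gelatin. Replicate 1 lay farther from both, at 0.328 to 0.339 on Matrigel and 0.328 to 0.333 on gelatin. Matrigel and gelatin arrays differed by 0.336 to 0.346 among replicates 2 and 3, whether or not the numbers matched, by 0.370 between both replicates 1, and by 0.442 to 0.456 where only 1 of the pair was replicate 1. Whether replicates come from separate cultures or lines is not given in the labels, and the p-values therefore cover the array-to-array spread only, which may be technical. All 12 defining endothelial markers were measured, with mean levels of 8.68 to 12.7 on Matrigel and 8.50 to 12.7 on gelatin. Markers of other cells the retina holds were mostly near the low end of the arrays. The mean level of 10 pericyte and smooth muscle markers was 4.52 to 4.55 on Matrigel and 4.67 to 4.74 on gelatin, and that of 6 fibroblast markers was 4.21 to 4.77 and 4.0 to 4.54. The mean was 4.26 to 4.32 and 4.35 to 4.37 for 6 glial markers, 3.73 to 3.83 and 3.92 to 4.0 for 5 neuron and photoreceptor markers, and 4.41 to 4.73 and 4.63 to 4.81 for 4 pigment epithelium markers. It was 4.63 to 4.87 and 4.61 to 4.88 for 6 leukocyte markers and 3.76 to 3.78 and 3.72 to 3.76 for 5 epithelial markers. Cd68, a lysosomal protein of macrophages, was the highest of these markers, at 9.56 ± 0.87 on Matrigel and 9.49 ± 0.93 on gelatin (SD, n = 3 each), and only Notch3 of pericytes and Glul of glia also had group means above 7. In bulk RNA, fewer cells of a type and less RNA per cell cannot be told apart.

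Matrigel cells differed from gelatin cells in many genes, more of them lower than higher. By limma, with an adjusted p below 0.05 over 18193 genes, 3356 genes passed (18.4% of those tested). Of these, 1221 were higher on Matrigel (6.71%) and 2135 were lower (11.7%). The median difference of the genes that rose was 0.51, and that of the genes that fell was -0.47. At least 2-fold differences were found in 81 genes that rose and 101 that fell. Over all genes the median difference was -0.05, and the middle 50% lay between -0.22 and 0.13. The balance of rises and falls depends on the scaling. Of the genes called, 36.4% were higher with the values as deposited, 47.7% after quantile normalization within the 12 arrays fitted (1475 higher and 1619 lower), and 24.1% after median centring (824 and 2598). The 3 Matrigel arrays did not overlap the 3 gelatin arrays in 3318 of the genes called. The calls were made from these same arrays, so this count gives them no separate support. Of all genes, 14.3% were entirely higher and 24.2% entirely lower. Without wild type Matrigel replicate 2, 2137 genes passed, 779 higher and 1358 lower. Without gelatin replicate 2, 773 were higher. With replicate 1 of all groups removed 5088 passed, and averaging replicates 2 and 3 gave 574.

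The largest rise was in Slc40a1, which encodes ferroportin, the only known iron exporter of mammalian cells. Slc40a1 had log2 levels of 8.80, 7.30 and 7.12 on Matrigel, against 4.50, 4.79 and 4.70 on gelatin. All Matrigel arrays lay above all gelatin arrays, and Matrigel replicate 1 was the highest. The difference was 3.08 ± 0.54 (SE, n = 3 per group, limma adjusted p = 0.00292), an 8.43-fold rise. Its other probe set differed by 3.40.

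Cxcr4, the receptor for the chemokine Cxcl12 and a gene of sprouting endothelium, had 8.17, 8.13 and 7.70 on Matrigel, against 5.63, 6.11 and 5.93 on gelatin. The groups were apart, and the rise was 2.11 ± 0.23 (SE, limma adjusted p = 0.000262). Its ligand Cxcl12, which these cells also express, moved the other way. Cxcl12 had 10.79, 10.73 and 10.78 on Matrigel, against 11.55, 11.71 and 11.68 on gelatin, and fell by 0.88 ± 0.19 (adjusted p = 0.00839). Its arrays did not overlap, and its other probe sets differed by -0.63 and -1.13.

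Of the 15 largest rises, 14 are characterised genes, and they spanned 1.42 to 3.08 with adjusted p-values of 9.77e-05 to 0.0111 by limma. Serpinb1a, an inhibitor of neutrophil proteases, rose by 2.04 ± 0.28 (SE). Its other probe set, low in both groups (3.06 on Matrigel and 3.16 on gelatin), differed by -0.10. Mettl7a1, a methyltransferase-like protein, rose by 1.94 ± 0.26, and its other probe sets differed by -0.10 and 1.70. The former was low in both groups (3.34 on Matrigel and 3.44 on gelatin). Dhrs3, which reduces retinaldehyde to retinol, rose by 1.57 ± 0.14, and Aox1, an aldehyde oxidase, by 1.57 ± 0.16. Cyp7b1, which hydroxylates oxysterols, rose by 1.44 ± 0.17. Arrdc3, an arrestin-domain protein that guides the turnover of surface receptors, had 7.27, 7.82 and 7.91 on Matrigel, against 5.59, 6.65 and 6.44 on gelatin. Its arrays did not overlap, and it rose by 1.44 ± 0.33. The homeobox factor Six4 rose by 1.54 ± 0.16 and its other probe sets by 1.13 to 2.35. Nrep rose by 1.60 ± 0.19, N4bp2l1 by 1.56 ± 0.13, Evi2a by 1.53 ± 0.14 and Fam181b by 1.42 ± 0.21. Speer4a rose by 1.90 ± 0.22, but it belongs to a multigene family whose members the probes may not tell apart.

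**Figure D1:**
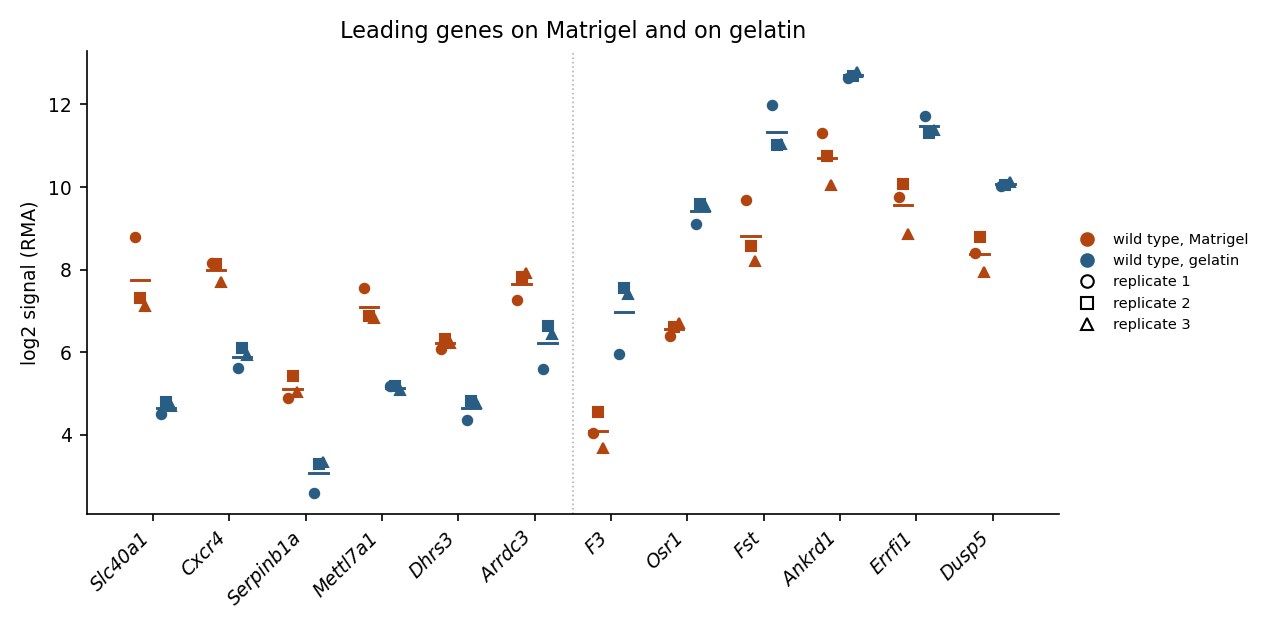
The log2 signal of 12 leading genes is plotted for each array, with wild type Matrigel arrays left of wild type gelatin arrays, a marker shape for each replicate number and bars at the group means. The 6 genes on the left were higher and the 6 on the right lower on Matrigel, from Slc40a1 at 3.08 to F3 at -2.87, and no gene shown has overlapping groups.

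F3, which encodes tissue factor, the trigger of blood coagulation, showed the largest fall. F3 had 4.06, 4.56 and 3.69 on Matrigel, against 5.95, 7.56 and 7.40 on gelatin. Gelatin replicate 1 was the lowest of its group and still lay above all Matrigel arrays. F3 fell by 2.87 ± 0.54 (SE, n = 3 per group, limma adjusted p = 0.00422).

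Osr1, a zinc finger transcription factor of mesoderm, had 6.39, 6.61 and 6.70 on Matrigel, against 9.10, 9.60 and 9.54 on gelatin. The groups lay far apart next to their own spread, and Osr1 fell by 2.85 ± 0.13 (adjusted p = 2.33e-06), the smallest adjusted p among the named falls. Fst, which encodes the activin antagonist follistatin, had 9.68, 8.57 and 8.22 on Matrigel, against 11.97, 11.02 and 11.03 on gelatin, and fell by 2.52 ± 0.51. Its arrays did not overlap, and its other probe set differed by -2.53. Inhba, which encodes the activin subunit that follistatin binds, had 8.92, 8.85 and 8.48 on Matrigel, against 10.34, 10.56 and 10.52 on gelatin, and fell by 1.72 ± 0.12. The groups did not overlap for this probe set. A second Inhba probe set, near the low end of the arrays (3.18 on Matrigel and 3.27 on gelatin), differed by -0.08.

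Of the other genes among the 15 largest falls, Errfi1, an inhibitor of the EGF receptor, fell by 1.90 ± 0.30 (SE), Dusp5, a nuclear ERK phosphatase, fell by 1.69 ± 0.21, Fgf5, a fibroblast growth factor, fell by 1.91 ± 0.27, and Maff, a small Maf transcription factor, fell by 1.64 ± 0.14. Akap12, a scaffold of protein kinases A and C, fell by 1.67 ± 0.11. Nppb, which encodes B-type natriuretic peptide, fell by 1.80 ± 0.19, and Il24, a cytokine of the interleukin-10 family, fell by 1.72 ± 0.20. Crct1 fell by 2.29 ± 0.32 and Nipal1, a magnesium transporter family member, fell by 1.62 ± 0.17. The 15 largest falls had adjusted p-values of 2.33e-06 to 0.0236 by limma. The highest of these was for Angptl4, an inhibitor of lipoprotein lipase, which had 9.20, 8.14 and 8.05 on Matrigel, against 11.03, 9.73 and 9.72 on gelatin, and fell by 1.70 ± 0.45. In both groups replicate 1 was the highest. The Angptl4 call was lost without Matrigel replicate 2 (-1.54, adjusted p = 0.0829), Matrigel replicate 3 (-1.49, 0.0836) or gelatin replicate 1 (-1.26, 0.0805). Without probe sets whose names end in a_at, s_at or x_at, Angptl4 was at -0.80 (limma adjusted p = 0.0504).

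Genes of the actin cytoskeleton and targets of SRF, which binds DNA motifs called CArG boxes, were lower on Matrigel. Of 33 measured, 19 fell, 0 rose and 14 did not pass (background 11.7% lower and 6.71% higher), and 32 had a negative difference. A gene on several lists counts under each. The background of 6.71% higher and 11.7% lower is the same for every list that follows. Their median difference was -0.43, beside -0.05 over all genes. Fhl2, a LIM protein that shuttles between adhesions and nucleus, had 8.84, 8.71 and 8.62 on Matrigel, against 10.08, 9.94 and 9.89 on gelatin. Zyx, which encodes the adhesion and stress fibre protein zyxin, had 8.88, 8.96 and 8.78 on Matrigel, against 9.85, 10.09 and 10.28 on gelatin. Neither gene had overlapping groups. Fhl2 fell by 1.24 ± 0.12 (SE, n = 3 per group, limma adjusted p = 0.000116) and Zyx fell by 1.20 ± 0.10 (adjusted p = 9.77e-05). The LIM protein Pdlim5 fell by 1.31 ± 0.21, with its 6 other probe sets at -1.62 to -1.03. Cnn2 (calponin 2) fell by 1.07 ± 0.23, Tpm1 (tropomyosin 1) fell by 0.85 ± 0.13 and Acta2 (smooth muscle actin) fell by 0.93 ± 0.18. The 2 further Acta2 probe sets differed by -0.19 and -0.13, and both were low, at 2.60 and 3.21 on Matrigel. Without probe sets whose names end in a_at, s_at or x_at, Acta2 differed by -0.13 (limma adjusted p = 0.496). Actb, the cytoplasmic actin often used as a reference, averaged 13.90 ± 0.02 on Matrigel and 13.98 ± 0.05 on gelatin (SD, n = 3 each), a difference of -0.08 ± 0.07 that did not pass. Srf itself had 7.01, 7.74 and 7.37 on Matrigel, against 7.72, 8.41 and 8.54 on gelatin. Its groups overlapped, and its difference of -0.85 ± 0.27 did not pass (limma adjusted p = 0.0515). Its other probe set differed by -0.98, with no overlap. Srf passed in 10 of 19 alternatives, among them without Matrigel replicate 2 (-1.03, 0.0482), without gelatin replicate 1 (-1.10, 0.0223), and with the replicate number as a block (adjusted p = 0.00269). After quantile normalization, after median centring, with all 24 arrays and with its probe sets averaged, the adjusted p was 0.0427, 0.0273, 0.006 and 0.0252.

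CArG boxes were looked for in the 300 bases around the start sites of transcripts, 250 before and 50 after, on both strands. Of all such windows of genes tested, 1.35% held one. Among the genes lower on Matrigel it was 2.07% (44 of 2123 windows), and among those higher 0.749% (9 of 1201). In the actin and SRF list, which holds genes known as SRF targets, 11 of 36 windows held one, from 10 of 30 genes. Of these genes, Myl9, Fhl2, Cnn2, Vcl and Actg1 fell, and Srf, Lima1, Fhl1, Filip1l and Vil1 did not pass. The stretches around these boxes are shown for Cnn2, for Actg1, which encodes cytoplasmic gamma actin, and for Srf, with the box in capitals. The sequences are RefSeq's on GRCm38.p6, read 5′ to 3′ on the strand of the gene, and Actg1 was chosen after its values were seen.
Cnn2 (chr10:79988519-79988578, plus strand): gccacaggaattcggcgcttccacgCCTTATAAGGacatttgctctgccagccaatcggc
Actg1 (chr11:120348551-120348610, minus strand): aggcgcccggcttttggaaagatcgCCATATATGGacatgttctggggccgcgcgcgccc
Srf (chr17:46556210-46556269, minus strand): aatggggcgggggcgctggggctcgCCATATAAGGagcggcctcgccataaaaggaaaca
The first base of the box lay 56 bases before the start site in Cnn2, 90 before it in Actg1 and 82 before it in Srf, where another box begins 62 bases before it. Actg1 had 13.15, 13.23 and 13.17 on Matrigel, against 13.68, 13.70 and 13.68 on gelatin. These levels are near the top of the array scale, the groups did not overlap, and Actg1 fell by 0.50 ± 0.06 (SE, limma adjusted p = 0.000616).

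Target genes of YAP and TAZ, which act on DNA through TEAD factors, were also lower. Of 24 measured, 10 fell, 0 rose and 14 did not pass, with a median difference of -0.40 beside -0.05 over all genes. Besides F3, the largest fall was in Ankrd1, a nuclear ankyrin repeat protein. Ankrd1 had 11.31, 10.75 and 10.06 on Matrigel, against 12.63, 12.70 and 12.79 on gelatin. The Matrigel arrays spread more than the gelatin arrays but did not overlap them, and Ankrd1 fell by 2.00 ± 0.26 (SE, limma adjusted p = 0.00068). Ccn1, a secreted matrix-associated protein, had 12.17, 11.48 and 10.51 on Matrigel, against 12.95, 12.65 and 12.59 on gelatin. Its groups did not overlap, and it fell by 1.35 ± 0.32 (adjusted p = 0.0135). The related Ccn2 had 12.76, 11.77 and 11.03 on Matrigel, against 13.15, 12.98 and 12.89 on gelatin, and fell by 1.15 ± 0.34 (adjusted p = 0.0354). In both genes the fall was smallest in Matrigel replicate 1. The Ccn2 call was lost without Matrigel replicate 2 (-1.11), without Matrigel replicate 3 (-0.74), or without gelatin replicate 1, 2 or 3 (-1.08, -1.17 and -1.21), with adjusted p-values of 0.0707 to 0.109. It was also lost after quantile normalization (-1.02, 0.0605). Fitted on the 6 arrays alone, neither passed, with adjusted p-values of 0.0504 for Ccn1 and 0.0824 for Ccn2. Without probe sets whose names end in a_at, s_at or x_at, Ccn1 was at -0.93 (limma adjusted p = 0.0816). Thbs1, the angiogenesis inhibitor thrombospondin 1, fell by 1.22 ± 0.17, Tgfb2, a TGF-beta ligand, fell by 1.18 ± 0.27, Amotl2, an angiomotin that binds YAP, fell by 0.98 ± 0.11, and Ajuba, a LIM protein that binds LATS kinases, fell by 0.86 ± 0.17. The co-activators themselves did not pass, with a difference of -0.03 ± 0.09 for Yap1 and 0.17 ± 0.10 for Wwtr1, which encodes TAZ.

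The TEAD motif GGAATG, searched on both strands, was in 13.2% of all windows, in 14.2% of the windows of genes lower on Matrigel and in 13.7% of those of genes higher. In the YAP and TAZ list it was in 11 of 22 windows, from 10 of 19 genes. Of these genes, Ankrd1, Ccn1, Amotl2, Ajuba and Lats2 fell, and Axl, Crim1, Ptpn14, Yap1 and Wwtr1 did not pass. These stretches show it in the promoters of 3 genes that fell, in capitals, as GGAATG or on the other strand as CATTCC.
Ankrd1 (chr19:36119937-36119992, minus strand): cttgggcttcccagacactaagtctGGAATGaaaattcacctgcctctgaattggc
Ccn1 (chr3:145650058-145650113, minus strand): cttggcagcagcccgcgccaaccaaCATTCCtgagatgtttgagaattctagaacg
Amotl2 (chr9:102717714-102717769, plus strand): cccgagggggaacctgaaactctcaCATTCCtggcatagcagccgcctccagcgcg
A match is a description of the letters and does not show that a factor binds there.

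**Figure D2:**
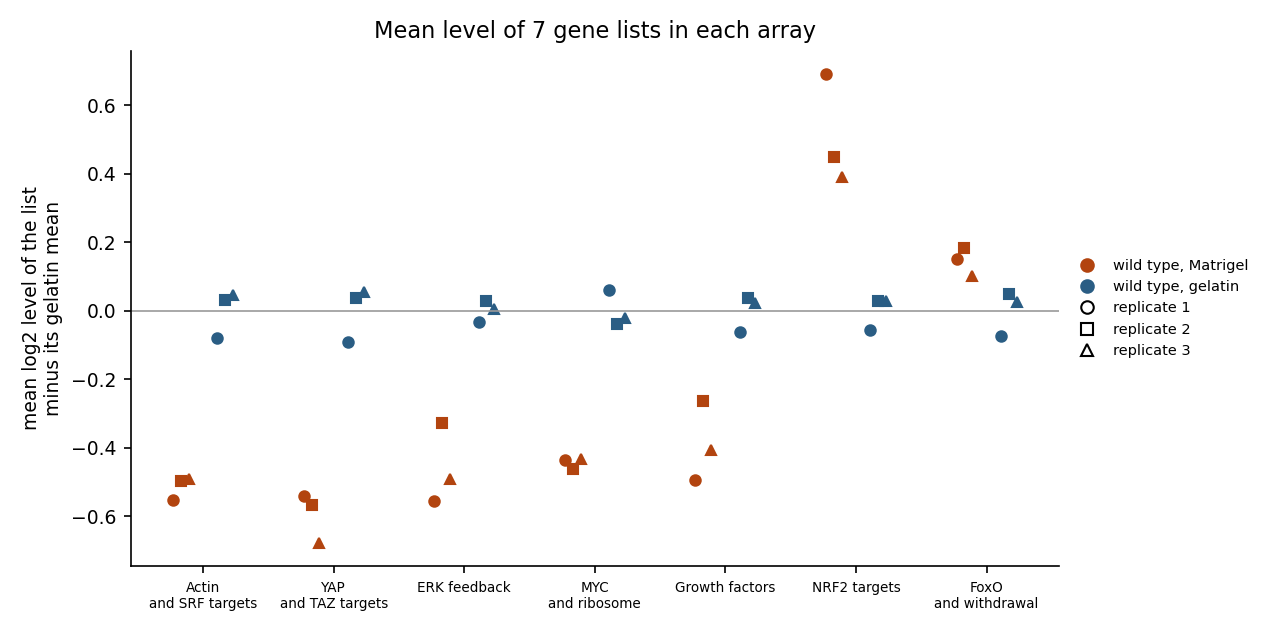
The mean log2 level over the members of 7 gene lists is plotted for each wild type array, minus the list's mean on gelatin, with Matrigel arrays left of gelatin arrays. The 3 Matrigel arrays lie below the 3 gelatin arrays for the actin, YAP, ERK, MYC and growth factor lists and above them for the NRF2 and FoxO lists.

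Adhesion genes were lower in part. Of 27 focal adhesion and integrin genes, 7 fell, 1 rose and 19 did not pass, beside a background of 11.7% lower and 6.71% higher. The median was -0.16 (4 rose and 8 fell with the replicate number as a block). The number that rose was 0 without Matrigel replicate 2 or 3 or gelatin replicate 1 or 2. Itga4, an integrin chain that binds fibronectin and VCAM1, had 7.61, 7.80 and 7.87 on Matrigel, against 8.80, 8.74 and 8.69 on gelatin. Its groups did not overlap, and it fell by 0.98 ± 0.15 (SE, limma adjusted p = 0.0016). The adaptor Bcar1 (p130Cas) fell by 0.86 ± 0.08 and the integrin-linked kinase gene Ilk fell by 0.65 ± 0.15.

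Few genes of the matrix itself passed the test. Of 34 laminin, collagen and basement membrane genes, 2 rose, 1 fell and 31 did not pass, with a median of 0.02. There was 1 rise without gelatin replicate 2. On leaving out 1 array, 0 fell without Matrigel replicate 2 or 3. Col4a1, a chain of collagen IV, had 12.78, 12.72 and 12.73 on Matrigel, against 12.66, 12.64 and 12.62 on gelatin. Lama4, a laminin chain of vessels, differed by 0.03 ± 0.34 and Fn1 (fibronectin) by -0.05 ± 0.11, and none of these passed, except that Col4a1 did after quantile normalization (0.23, adjusted p = 0.0449). The Fn1 probe set used averaged 13.3 on Matrigel and 13.4 on gelatin, near the top of the array scale. The other Fn1 probe set differed by -0.72 with no overlap between the groups, so a fall of Fn1 is not excluded. Col1a1, a collagen I chain that was low in all arrays, had 4.25, 4.28 and 4.13 on Matrigel, against 3.59, 3.31 and 3.44 on gelatin, and rose by 0.77 ± 0.10, while its other probe set differed by -0.66 and the mean of its probe sets did not pass (0.06, adjusted p = 0.633). Of 27 matrix proteases and inhibitors, 5 fell, 1 rose and 21 did not pass (2 rose and 6 fell with the replicate number as a block). Rises numbered 2 without Matrigel replicate 1. The count of falls was 3 without Matrigel replicate 1. Timp1, an inhibitor of metalloproteinases, fell by 0.92 ± 0.19 and Plaur, the urokinase receptor, fell by 0.79 ± 0.16, and the protease Adamts9 rose by 0.62 ± 0.14. Of 29 BMP and TGF-beta response genes, 1 rose and 2 fell. The test gave 0 rises without Matrigel replicate 2. The number that fell was 1 without Matrigel replicate 2 or 3 or gelatin replicate 1 or 3.

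Feedback genes of the ERK pathway, which rise and fall with its activity, were lower. Of 20 measured, 9 fell, 0 rose and 11 did not pass, with a median of -0.41. Dusp5 had 8.41, 8.78 and 7.94 on Matrigel, against 10.03, 10.04 and 10.13 on gelatin. Spry4, an inhibitor of receptor tyrosine kinase signalling, had 6.54, 6.97 and 6.25 on Matrigel, against 7.90, 7.91 and 8.05 on gelatin. The groups did not overlap in either gene, and Spry4 fell by 1.37 ± 0.16 (SE, limma adjusted p = 0.000318). The ETS factor Etv4 fell by 0.92 ± 0.20 and the related Etv5 fell by 0.47 ± 0.11 (-0.39, limma adjusted p = 0.0638, without replicate 1 of every group), Phlda1 fell by 0.83 ± 0.16, and Epha2, an ephrin receptor, fell by 0.68 ± 0.09. Dusp6, the cytoplasmic ERK phosphatase, had 9.29, 9.72 and 9.34 on Matrigel, against 9.20, 9.36 and 9.28 on gelatin, and did not pass (0.17 ± 0.12).

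Of 38 growth factors and cytokines, 12 fell, 2 rose and 24 did not pass, with a median of -0.31. There was 1 rise without Matrigel replicate 2 or 3 or gelatin replicate 1 or 2. Ligands of the EGF receptor family were among those that fell. Hbegf, the heparin-binding EGF-like factor, had 10.51, 10.86 and 9.87 on Matrigel, against 12.03, 11.87 and 11.90 on gelatin. The groups were fully apart, Hbegf fell by 1.52 ± 0.21 (SE, limma adjusted p = 0.000909), and its other probe set differed by -1.75. Nrg1 (neuregulin 1) fell by 0.80 ± 0.17, and Ereg (epiregulin), which was low in all arrays, fell by 0.90 ± 0.14. Fgf16 fell by 1.28 ± 0.28.

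Immediate early genes, the first genes to respond to serum, gave 6 falls, 1 rise and 16 members not past of 23. Fosl2, a Fos family factor, fell by 1.18 ± 0.09 (SE), Fosl1 fell by 0.74 ± 0.15 and Jun fell by 0.56 ± 0.11. Fos had 9.63, 9.36 and 8.21 on Matrigel, against 9.70, 9.40 and 9.39 on gelatin, and Egr1 had 11.02, 12.04 and 10.44 on Matrigel, against 11.71, 11.80 and 11.84 on gelatin. In both genes Matrigel replicate 3 was the lowest array and the groups overlapped, and neither passed (-0.43 ± 0.39 and -0.62 ± 0.36). Without Matrigel replicate 2, Egr1 passed at -1.06 (limma adjusted p = 0.0418).

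**Figure D3:**
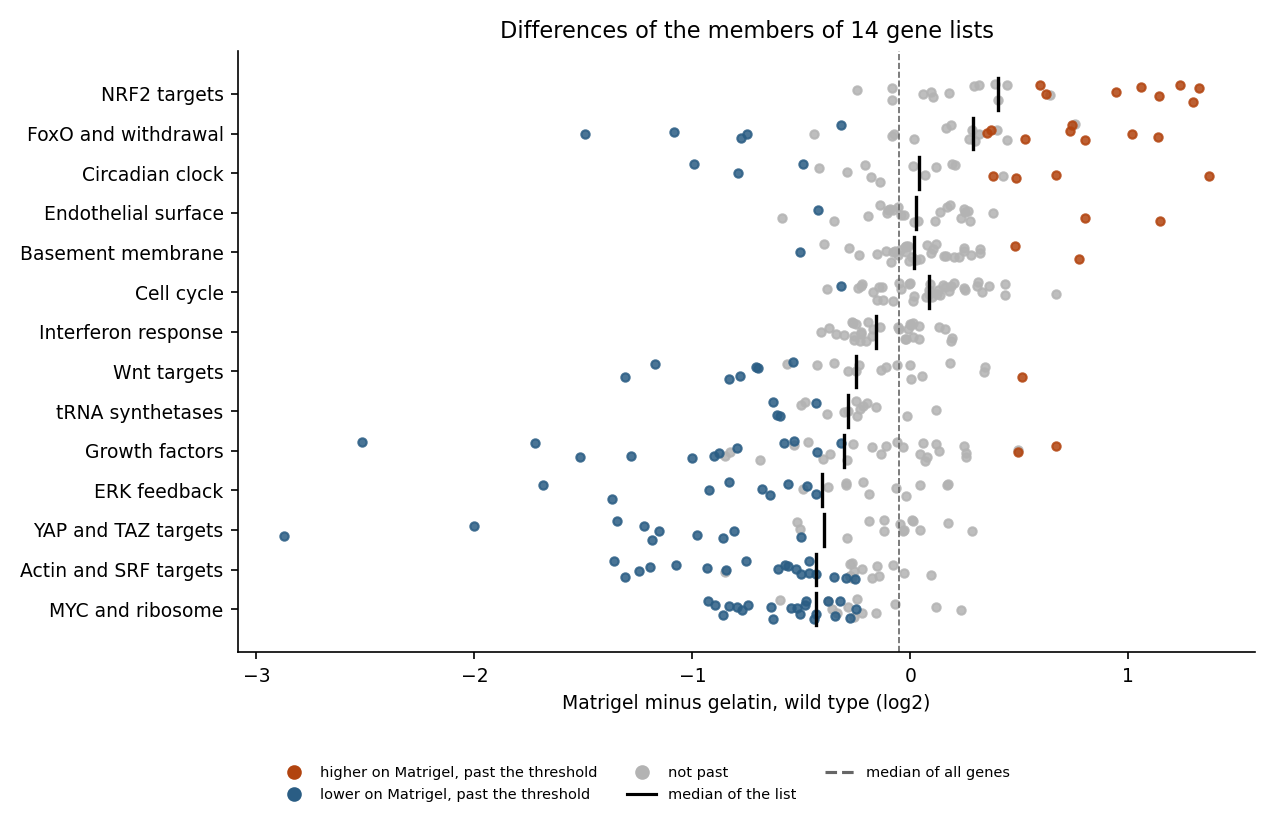
The Matrigel minus gelatin difference in wild type cells (log2, horizontal axis) is plotted for each measured member of 14 gene lists, coloured where it passed the threshold, with a bar at the median of the list and a dashed line at the median of all genes. The actin and MYC lists have medians of -0.43, and the NRF2 list has a median of 0.40 with 8 members that rose and 0 that fell.

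MYC drives genes of the nucleolus and of ribosome production, and these were lower on Matrigel. Of 33 measured, 21 fell, 0 rose and 12 did not pass (1 rose and 25 fell with the replicate number as a block), with a median of -0.43 beside -0.05 over all genes. None of the 21 differed by as much as 2-fold. Srm, which makes spermidine, had 9.36, 9.57 and 9.61 on Matrigel, against 10.45, 10.40 and 10.49 on gelatin. Gnl3 (nucleostemin), a nucleolar GTPase, had 9.36, 9.28 and 9.45 on Matrigel, against 10.17, 10.16 and 10.15 on gelatin. The groups were tight and apart in both genes, and Srm fell by 0.93 ± 0.11 (SE, limma adjusted p = 0.00034) and Gnl3 fell by 0.80 ± 0.08 (adjusted p = 0.00022). Nop58 fell by 0.90 ± 0.12 and Nop56 fell by 0.64 ± 0.09, and both are core proteins of the box C/D small nucleolar particles. Of the factors of ribosomal subunit assembly, Ppan fell by 0.86 ± 0.12 and Wdr43 fell by 0.77 ± 0.11, and Nop2, an RNA methyltransferase, fell by 0.74 ± 0.11. Npm1, the abundant nucleolar protein nucleophosmin, had 12.07, 12.22 and 12.37 on Matrigel, against 12.23, 12.37 and 12.28 on gelatin, and did not pass (-0.07 ± 0.10). Myc had 9.18, 8.60 and 7.94 on Matrigel, against 9.58, 9.38 and 9.26 on gelatin, and fell by 0.83 ± 0.26 (adjusted p = 0.0433). Matrigel replicate 1 lay closest to gelatin. The Myc call was lost without Matrigel replicate 2 (-0.84) or 3 (-0.51) or each gelatin replicate in turn (-0.74, -0.84 and -0.90), with adjusted p-values of 0.0724 to 0.133, as well as after quantile normalization (0.0738) and with the 6 arrays alone (0.0902).

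Of 17 cytosolic aminoacyl-tRNA synthetases, 4 fell, 0 rose and 13 did not pass, and 16 had a negative difference, with a median of -0.29. With the replicate number as a block 9 fell. On leaving out 1 array, 2 fell without Matrigel replicate 2 or gelatin replicate 1. Iars, the isoleucine enzyme, fell by 0.63 ± 0.10 (SE) and Nars, the asparagine enzyme, fell by 0.61 ± 0.11. Of 30 genes of amino acid stress and the unfolded protein response, 4 fell, 1 rose and 25 did not pass, near the background of 11.7% lower and 6.71% higher. With the block 9 fell. Falls numbered 0 without Matrigel replicate 2 or gelatin replicate 1, 1 without Matrigel replicate 1 or gelatin replicate 3 and 2 without gelatin replicate 2. Of 28 genes of cholesterol and fatty acid synthesis, 4 fell, 0 rose and 24 did not pass, with a median of -0.26. The falls were near the background of 11.7% lower. The count of rises was 1 without gelatin replicate 1. The test gave 2 falls without Matrigel replicate 2 or 3 or gelatin replicate 1. Fasn, the fatty acid synthase, had 9.66, 9.76 and 9.72 on Matrigel, against 10.49, 10.20 and 10.33 on gelatin, groups that did not overlap, and fell by 0.63 ± 0.10 (limma adjusted p = 0.00176). Acaca, the acetyl-CoA carboxylase that supplies it, fell by 0.37 ± 0.07, and the mean of its probe sets did not pass (-0.21, adjusted p = 0.137). Of 28 glycolysis and hypoxia genes 2 fell and 0 rose (1 rose and 4 fell with the replicate number as a block). The number that fell was 1 without each Matrigel replicate in turn or each gelatin replicate in turn. Of 16 heat shock genes 2 fell and 1 rose (2 rose and 2 fell with the replicate number as a block). There was 1 fall without Matrigel replicate 1 or 2 or each gelatin replicate in turn.

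Few genes of DNA replication and mitosis passed the test. Of 39 measured, 0 rose, 1 fell and 38 did not pass, with a median of 0.09 (background 6.71% higher and 11.7% lower). The Matrigel arrays lay entirely above the gelatin arrays in 9 members and entirely below them in 6, against 14.3% and 24.2% of all genes. On leaving out 1 array, 0 fell without each Matrigel replicate in turn or gelatin replicate 2 or 3. Mki67, a marker of cycling cells, had 10.25, 10.30 and 10.35 on Matrigel, against 10.05, 10.22 and 10.10 on gelatin, and Pcna, the sliding clamp of DNA replication, had 13.09, 12.96 and 12.97 on Matrigel, against 13.04, 13.07 and 13.15 on gelatin. Neither passed, at 0.18 ± 0.52 and -0.08 ± 0.20 (SE). These SE values draw on the spread of all 12 arrays fitted, Fz4-/- arrays included, and the wild type groups of Mki67 did not overlap. Regulators of the G1 phase were lower in part, with 4 falls, 0 rises and 14 not past of 18, beside a background of 11.7% lower and 6.71% higher (1 rose and 5 fell with the replicate number as a block). Falls numbered 2 without gelatin replicate 3. Ccnd2 (cyclin D2) fell by 0.72 ± 0.16, with 6 other probe sets at -0.79 to -0.64, and Cdk6, its kinase partner, fell by 0.62 ± 0.13. Ccnd1 (cyclin D1) had 12.69, 12.38 and 12.27 on Matrigel, against 13.32, 12.77 and 12.87 on gelatin, and fell by 0.54 ± 0.17 (limma adjusted p = 0.0476). The groups did not overlap. The Ccnd1 call was lost without Matrigel replicate 2 (-0.50) or 3 (-0.45) or gelatin replicate 1 (-0.37) or 3 (-0.60), with adjusted p-values of 0.0723 to 0.154, and also after quantile normalization (0.122) and with the 6 arrays alone (0.0743). Of 19 p53 targets, 2 rose and 3 fell. The count of rises was 0 without Matrigel replicate 3 or gelatin replicate 1 and 1 without Matrigel replicate 1 or 2 or gelatin replicate 2 or 3. The test gave 1 fall without Matrigel replicate 1 or gelatin replicate 2 or 3.

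FoxO factors induce a set of genes when growth factors are withdrawn. Of 26 measured, 8 rose, 5 fell and 13 did not pass, with a median of 0.29. The number that rose was 4 without gelatin replicate 1 and 5 without Matrigel replicate 2 or 3 or gelatin replicate 3. There were 3 falls without Matrigel replicate 3. Without replicate 1 of every group 13 rose. Ccng2, a cyclin of arrested cells, had 10.20, 10.18 and 10.24 on Matrigel, against 9.18, 9.08 and 8.95 on gelatin. The 3 arrays on each substrate stayed apart, and it rose by 1.13 ± 0.20 (SE, limma adjusted p = 0.00344). Bcl6, a transcriptional repressor, rose by 0.74 ± 0.14 and Ypel3, a growth suppressor named after its values were seen, by 0.53 ± 0.12. The members that fell include Irs1 and Irs2, the insulin receptor substrates. Irs1 had 6.07, 5.37 and 5.67 on Matrigel, against 7.01, 7.36 and 7.21 on gelatin. There was no overlap between the groups, and Irs1 fell by 1.49 ± 0.19 and Irs2 fell by 0.75 ± 0.16. Cited2, a transcriptional co-regulator, fell by 1.09 ± 0.16.

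Of 18 circadian clock genes, 4 rose, 3 fell and 11 did not pass. On leaving out 1 array, 1 rose without Matrigel replicate 2 and 2 without Matrigel replicate 3 or gelatin replicate 3. Dbp, a clock output factor, had 7.83, 8.42 and 8.49 on Matrigel, against 6.38, 7.22 and 7.03 on gelatin. The groups did not overlap, and it rose by 1.37 ± 0.21 (SE, limma adjusted p = 0.00144). Nfil3, which competes with Dbp for its sites, fell by 0.79 ± 0.09, and Per1, a clock repressor that serum induces, fell by 0.49 ± 0.11. Of 21 autophagy and lysosome genes, 2 rose and 0 fell. Rises numbered 1 without Matrigel replicate 2.

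Targets of NRF2, the transcription factor of the oxidative stress response, were higher on Matrigel. Of 21 measured, 8 rose, 0 fell and 13 did not pass, with a median of 0.40 beside -0.05 over all genes. Nqo1, a quinone reductase, had 11.57, 10.65 and 10.55 on Matrigel, against 9.62, 9.67 and 9.59 on gelatin. Slc7a11, the cystine importer, had 7.76, 6.99 and 6.67 on Matrigel, against 5.79, 5.77 and 5.90 on gelatin. In both genes all Matrigel arrays lay above all gelatin arrays and Matrigel replicate 1 was the highest. Nqo1 rose by 1.30 ± 0.29 (SE, limma adjusted p = 0.00994) and Slc7a11 by 1.32 ± 0.27 (adjusted p = 0.00645). Both subunits of glutamate-cysteine ligase, which starts glutathione synthesis, were among them, with Gclm higher by 1.14 ± 0.24 and Gclc by 0.94 ± 0.12. Srxn1 (sulfiredoxin) rose by 1.06 ± 0.22 and Osgin1, an oxidative stress-induced growth inhibitor, by 0.59 ± 0.14. Hmox1, which breaks down heme and releases its iron, had 12.48, 11.84 and 11.85 on Matrigel, against 10.65, 10.93 and 10.89 on gelatin, and rose by 1.24 ± 0.32. The groups lay apart, and its call was lost without Matrigel replicate 1 (1.03, adjusted p = 0.0674) or gelatin replicate 1 (1.15, 0.0608). Nfe2l2, which encodes NRF2, had 10.45, 10.78 and 10.84 on Matrigel, against 10.09, 10.54 and 10.51 on gelatin. It did not pass (0.32 ± 0.13) and passed without Matrigel replicate 1 (0.43, adjusted p = 0.044) and after quantile normalization (0.44, 0.0423).

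NRF2 binds antioxidant response elements, whose core TGACNNNGC was searched on both strands. It was in 13.9% of all windows, in 14.8% of those of genes higher on Matrigel, in 13.6% of those of genes lower, and in 5 of 21 windows of the NRF2 list. Of the list members that held it, Gclm and Srxn1 rose, and Nfe2l2, Txnrd1 and Pgd did not pass. The stretch of Gclm shows a match on the other strand, in capitals.
Gclm (chr3:122245398-122245456, plus strand): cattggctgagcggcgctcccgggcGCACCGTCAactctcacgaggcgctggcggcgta
Its first base lay 134 bases before the start site.

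Of 21 genes of iron and heme handling, 3 rose, 1 fell and 17 did not pass, with a median of 0.09 (5 rose and 1 fell with the replicate number as a block). The count of rises was 1 without gelatin replicate 1. The test gave 0 falls without Matrigel replicate 2 or 3 or gelatin replicate 1 and 2 without gelatin replicate 3. Slc40a1 and Hmox1 are on this list too. Fth1, the heavy chain of the iron store ferritin, had 13.84, 13.88 and 13.86 on Matrigel, against 13.42, 13.92 and 13.95 on gelatin. Gelatin replicate 1 was the lowest, the groups overlapped, and Fth1 did not pass (0.09 ± 0.14).

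Few of the receptors that define endothelium passed the test. Of 26 endothelial receptors and surface markers, 2 rose, 1 fell and 23 did not pass, with a median of 0.03 (4 rose and 2 fell with the replicate number as a block). The rises were near the background of 6.71% higher, and the falls below that of 11.7% lower. Pecam1, an adhesion molecule, had 11.76, 11.48 and 11.44 on Matrigel, against 11.53, 11.28 and 11.37 on gelatin. Cdh5, the cadherin of endothelial junctions, had 10.98, 11.11 and 11.11 on Matrigel, against 10.93, 10.98 and 10.95 on gelatin. Kdr, the main VEGF receptor, had 9.88, 10.25 and 10.32 on Matrigel, against 10.17, 10.15 and 10.26 on gelatin. The groups overlapped in all 3 genes. Their differences were 0.17 ± 0.10, 0.11 ± 0.09 and -0.04 ± 0.16 (SE), and that of Flt1, the decoy VEGF receptor, was 0.18 ± 0.15. The other probe sets of Flt1 differed by -0.35 with no overlap, and by -0.09 and 0.11 with overlap. Flt1 passed in 1 alternative (limma adjusted p = 0.0368). Fzd4, the frizzled-4 receptor, had 8.66, 8.56 and 8.67 on Matrigel, against 9.09, 8.58 and 8.44 on gelatin, a difference of -0.07 ± 0.22 that did not pass.

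Tek, the angiopoietin receptor TIE2, was 1 of the genes that rose. Tek had 9.66, 9.43 and 9.37 on Matrigel, against 8.70, 8.72 and 8.65 on gelatin. Clec14a, an endothelial lectin of vessel sprouts, had 10.64, 10.53 and 10.35 on Matrigel, against 9.36, 9.32 and 9.39 on gelatin. The groups did not overlap in either, and Tek rose by 0.80 ± 0.12 (SE, limma adjusted p = 0.00133) and Clec14a by 1.15 ± 0.12 (adjusted p = 0.00025). S1pr1, a receptor of sphingosine 1-phosphate, a lipid that serum carries, fell by 0.42 ± 0.09, and did not pass after quantile normalization (-0.27, adjusted p = 0.0879) or with all 24 arrays (0.0879). Of 18 VEGF, angiopoietin and apelin genes, 2 rose, 2 fell and 14 did not pass. The number that fell was 0 without Matrigel replicate 2 and 1 without Matrigel replicate 1 or 3 or gelatin replicate 1 or 2. Vegfd, a VEGF of lymphatic growth, rose by 1.13 ± 0.18.

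Of 28 endothelial transcription factors, 4 rose, 2 fell and 22 did not pass (7 rose and 2 fell with the replicate number as a block). There were 0 rises without Matrigel replicate 2, 1 without Matrigel replicate 3 and 2 without each gelatin replicate in turn. On leaving out 1 array, 1 fell without Matrigel replicate 2 or 3 or gelatin replicate 1. Sox18 had the highest difference of the list, at 0.87. Hey2, a Notch target that marks arteries, had 2.80, 2.80 and 3.03 on Matrigel, against 4.16, 4.37 and 3.92 on gelatin. It was near the low end of the arrays on Matrigel, the groups did not overlap, and it fell by 1.27 ± 0.13 (SE, limma adjusted p = 0.0002). Of 18 Notch pathway genes, 2 rose and 2 fell (4 rose and 2 fell with the replicate number as a block). Rises numbered 1 without Matrigel replicate 2 or 3 or gelatin replicate 1 or 2. The count of falls was 1 without Matrigel replicate 2 or 3 or gelatin replicate 1. The Notch ligand Dll4 had 6.83, 7.59 and 7.25 on Matrigel, against 7.84, 7.27 and 7.48 on gelatin, and did not pass (-0.31 ± 0.25). Of 17 Krüppel-like factors and genes of the shear response, 2 rose and 2 fell (4 rose and 4 fell with the replicate number as a block). Klf5 fell by 1.17 ± 0.13 and Klf11 rose by 0.68 ± 0.11. Without probe sets whose names end in a_at, s_at or x_at, Klf5 was read from another set, at 4.86 on Matrigel and 5.29 on gelatin. That set differed by -0.43 (limma adjusted p = 0.0704). The flow-induced factors Klf2 and Klf4 did not pass, at 0.18 ± 0.17 and -0.12 ± 0.25.

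Of 25 tip cell genes, which mark the leading cell of a sprout, 1 rose, 3 fell and 21 did not pass. These counts are near the background of 6.71% higher and 11.7% lower (1 rose and 6 fell with the replicate number as a block). Cxcr4 was the member that rose. Apln, the ligand of the apelin receptor, had 11.68, 10.45 and 10.22 on Matrigel, against 12.86, 11.85 and 11.96 on gelatin. In both groups replicate 1 was the highest, the groups did not overlap, and Apln fell by 1.44 ± 0.35 (SE, limma adjusted p = 0.0148). Its call was lost without Matrigel replicate 2 (-1.27) or 3 (-1.16) or gelatin replicate 1 (-1.12), with adjusted p-values of 0.0514 to 0.0596, and with the 6 arrays alone (0.058). Esm1, a proteoglycan of tip cells, had 8.07, 3.89 and 3.82 on Matrigel, against 9.20, 4.68 and 4.42 on gelatin. Replicate 1 stood far above replicates 2 and 3 in both groups, and the difference of -0.84 ± 1.44 did not pass. Without replicate 1 of every group it did (-0.70, adjusted p = 0.00447).

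**Figure D4:**
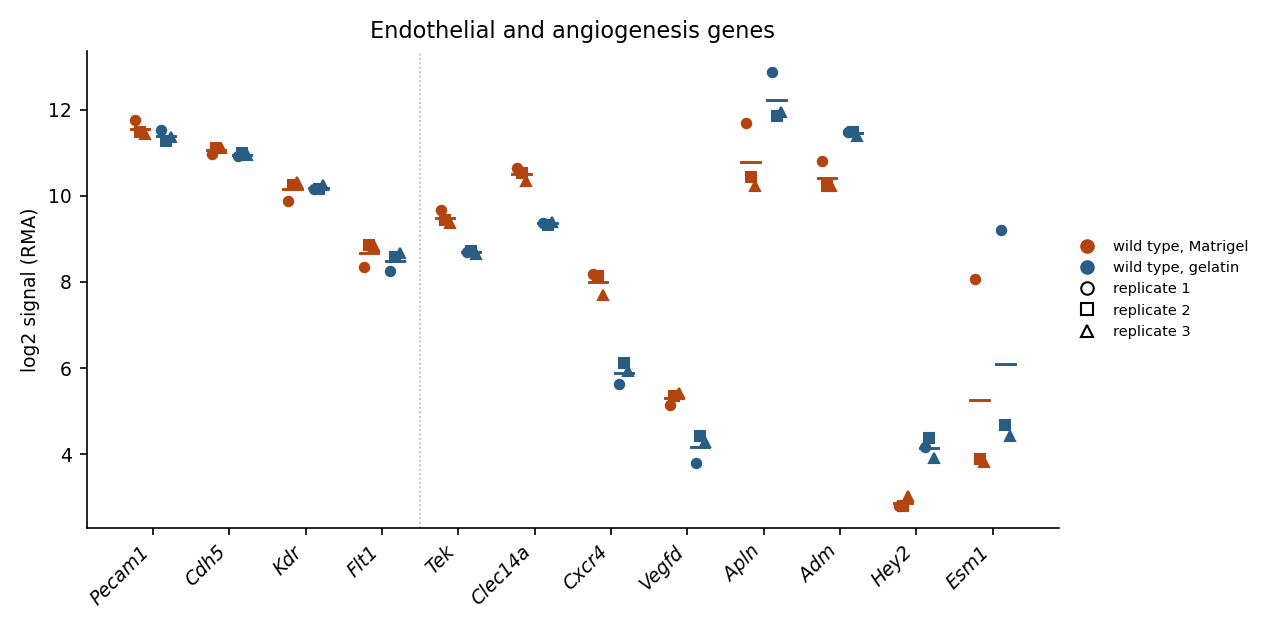
The log2 signal of 12 endothelial and angiogenesis genes is plotted for each array, with wild type Matrigel arrays left of wild type gelatin arrays and bars at the group means. The 4 genes on the left overlap between the groups, Tek, Clec14a, Cxcr4 and Vegfd lie higher on Matrigel, Apln, Adm and Hey2 lie lower, and Esm1 is high in replicate 1 of both groups.

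Of 25 genes of vasoactive peptides and their receptors, 3 rose, 4 fell and 18 did not pass, near the background of 6.71% higher and 11.7% lower (3 rose and 9 fell with the replicate number as a block). The test gave 7 falls without Matrigel replicate 1. Adm, which encodes the vasodilator adrenomedullin, had 10.81, 10.23 and 10.22 on Matrigel, against 11.49, 11.48 and 11.38 on gelatin. Calcrl, its receptor, had 7.78, 8.21 and 8.27 on Matrigel, against 7.04, 7.34 and 7.07 on gelatin. Neither gene had overlapping groups, and Adm fell by 1.03 ± 0.14 (SE, limma adjusted p = 0.000935) while Calcrl rose by 0.94 ± 0.17 (adjusted p = 0.00366). Without probe sets whose names end in a_at, s_at or x_at, the Calcrl set left was low, at 2.69 on Matrigel and 2.52 on gelatin. It differed by 0.18 (limma adjusted p = 0.218). A further Calcrl probe set, which that filter removes, differed by 0.94 with overlapping groups. Nppc, which encodes C-type natriuretic peptide, rose by 0.66 ± 0.14, in the opposite direction to Nppb. Ptgs2, the inducible cyclooxygenase, had 10.20, 10.72 and 10.03 on Matrigel, against 11.54, 11.81 and 11.57 on gelatin. It fell by 1.32 ± 0.24, with no overlap between the groups.

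Of 16 coagulation and fibrinolysis genes, 5 fell, 1 rose and 10 did not pass, with a median of -0.20. The number that rose was 0 without each Matrigel replicate in turn or gelatin replicate 2 or 3. Those that fell act on both sides of coagulation. F3 starts it, while Thbd (thrombomodulin) turns thrombin towards the anticoagulant protein C. Thbd had 10.60, 10.83 and 10.92 on Matrigel, against 11.34, 11.83 and 11.73 on gelatin, and fell by 0.85 ± 0.15 (SE, limma adjusted p = 0.00321). Its arrays did not overlap.

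Targets of Wnt and beta-catenin signalling, the pathway that Norrin and frizzled-4 act through in retinal vessels, were lower in part. Of 23 measured, 7 fell, 1 rose and 15 did not pass, beside a background of 11.7% lower and 6.71% higher. The median was -0.25 (2 rose and 7 fell with the replicate number as a block). There were 3 falls without Matrigel replicate 2 and 4 without gelatin replicate 1 or 3. Sp5 had the lowest difference of the list, at -1.31. Lef1, a transcription factor of the pathway, had 3.46, 3.39 and 3.26 on Matrigel, against 4.48, 4.61 and 4.53 on gelatin. The groups did not overlap, and Lef1 fell by 1.17 ± 0.09 (SE, limma adjusted p = 5.97e-05). Its other probe set, near the low end of the arrays (2.70 on Matrigel and 2.74 on gelatin), differed by -0.04. Nkd2, a feedback inhibitor, fell by 0.70 ± 0.15, and its other 3 probe sets differed by -0.73 to -0.64. Axin2, a target in most tissues, had 4.90, 4.53 and 4.37 on Matrigel, against 4.80, 4.78 and 4.64 on gelatin. Its groups overlapped, and it did not pass (-0.14 ± 0.12). Myc and Ccnd1 are also on this list. Of 31 Wnt receptors and antagonists, 1 rose and 1 fell (2 rose and 2 fell with the replicate number as a block).

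Of 30 junction and barrier genes, 3 rose, 5 fell and 22 did not pass, near the background of 6.71% higher and 11.7% lower. On leaving out 1 array, 1 fell without Matrigel replicate 2 or gelatin replicate 1, 2 without Matrigel replicate 3 or gelatin replicate 2 and 3 without Matrigel replicate 1 or gelatin replicate 3. Jam2, a junctional adhesion molecule, had 5.63, 5.74 and 5.77 on Matrigel, against 4.16, 4.31 and 5.04 on gelatin. The groups were fully apart, and it rose by 1.21 ± 0.22 (SE, limma adjusted p = 0.0032), and the related Jam3 rose by 0.48 ± 0.11. Cldn5, the claudin of the blood-retina barrier, had 11.19, 10.02 and 9.87 on Matrigel, against 10.45, 9.50 and 9.50 on gelatin. In both groups replicate 1 was the highest, and Cldn5 did not pass (0.54 ± 0.53). With the replicate number as a block it passed (adjusted p = 0.0102), as it did without replicate 1 of every group (0.45, 0.0197). Of 37 axon guidance genes, 6 rose, 4 fell and 27 did not pass. Efna1, an ephrin, rose by 0.77 ± 0.13 and its receptor Epha2 fell, as given above. Ntn4, a netrin of basement membranes, fell by 0.57 ± 0.09.

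Of 24 genes of NF-kB and inflammatory adhesion, 3 fell and 0 rose (1 rose and 5 fell with the replicate number as a block). Of 32 interferon response genes, 0 rose and 0 fell by limma, with 1 of 32 at an unadjusted p below 0.05 (0 rose and 4 fell with the replicate number as a block). Falls numbered 1 without gelatin replicate 1. Replicate 1 stood apart from replicates 2 and 3 on both substrates. In replicates 1, 2 and 3 the mean log2 level of the NF-kB list was 8.18, 9.31 and 9.20 on Matrigel, against 8.55, 9.43 and 9.42 on gelatin, and that of the interferon list was 9.79, 10.8 and 10.8 on Matrigel, against 9.88, 10.9 and 10.9 on gelatin. The part of this spread in the number of calls was not tested. Of 20 potassium and other ion channels, 1 rose and 1 fell (2 rose and 3 fell with the replicate number as a block). The count of falls was 0 without Matrigel replicate 2 or 3 or gelatin replicate 2 or 3 and 2 without gelatin replicate 1. Among the markers of other cells, 2 of 10 of pericytes and smooth muscle fell, 1 of 6 of fibroblasts rose, 1 of 6 of glia rose and 1 fell, 1 of 5 of neurons fell, 1 of 4 of pigment epithelium fell, and 0 of 6 of leukocytes and 0 of 5 of epithelium passed. The largest of these were Acta2 and Col1a1, and the counts of fibroblasts, glia, pigment epithelium and leukocytes were the same with any 1 array left out. Of the pericyte and smooth muscle markers, 1 rose without Matrigel replicate 2, and 1 fell without Matrigel replicate 2 or 3 or gelatin replicate 1 or 2. Of the neuron markers, 0 fell without Matrigel replicate 2 or each gelatin replicate in turn, and of the epithelial markers 1 fell without Matrigel replicate 3.

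The same contrast in Fz4-/- cells asks whether the response differs without frizzled-4. Fzd4 averaged 4.89 on Matrigel and 5.06 on gelatin in Fz4-/- cells, against 8.63 and 8.70 in wild type cells, in log2 signal. In Fz4-/- cells 3592 genes passed (19.7%), 1439 higher on Matrigel (7.91%) and 2153 lower (11.8%). Genes called in the same direction in both genotypes were 65.7% of those called in wild type and 61.4% of those called in Fz4-/-. Of the 1221 wild type rises, 808 rose and 2 fell in Fz4-/-, and of the 2135 wild type falls, 1397 fell and 0 rose. The rise of Slc40a1 was 3.08 ± 0.54 in wild type cells and 3.54 ± 0.54 in Fz4-/- cells (SE), that of Cxcr4 was 2.11 ± 0.23 and 1.93 ± 0.23, and that of Nqo1 was 1.30 ± 0.29 and 1.66 ± 0.29. The differences were -2.87 ± 0.54 in wild type and -2.36 ± 0.54 in Fz4-/- for F3, -2.00 ± 0.26 and -2.90 ± 0.26 for Ankrd1, and -1.20 ± 0.10 and -1.36 ± 0.10 for Zyx. Both contrasts share the spread of the fit but no array. The actin and SRF list gave 19 falls in wild type and 18 in Fz4-/-, the YAP and TAZ list 10 and 10, the ERK feedback list 9 and 7, the MYC list 21 and 25, and the NRF2 list 8 and 6 rises. The Wnt target list gave 7 falls in wild type and 5 in Fz4-/-, with medians of -0.25 and -0.06. The list of endothelial receptors and surface markers gave 2 and 7 rises, with medians of 0.03 and 0.19. The differences in these counts were not tested.

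The difference of the responses itself passed in 3 of 18193 genes (0.0165%) by limma, with 830 genes at an unadjusted p below 0.05. They are Kcnn4, Gadd45a and Tbx18. Kcnn4, a calcium-activated potassium channel, had 5.64, 5.39 and 5.66 on Matrigel and 5.75, 5.81 and 5.86 on gelatin in wild type cells, a difference of -0.24 ± 0.10, against 1.26 ± 0.10 in Fz4-/- cells (adjusted p of the difference = 0.00458). Its other probe set went the opposite way in wild type cells (0.36, with no overlap), and with probe sets averaged the wild type difference was 0.06 and the difference of the responses -1.57 (adjusted p = 0.0026). Gadd45a, a stress-induced gene, had 7.99, 8.01 and 8.19 on Matrigel and 7.61, 7.79 and 7.69 on gelatin in wild type cells. No overlap was seen between the groups, and it rose by 0.37 ± 0.09 in wild type cells, against a difference of -0.89 ± 0.09 in Fz4-/- cells (adjusted p of the difference = 0.00702). The wild type rise alone lost its call without Matrigel replicate 3 (0.30), gelatin replicate 1 (0.33) or gelatin replicate 3 (0.36), with adjusted p-values of 0.0521 to 0.0731, and after median centring (0.31, 0.0541). Tbx18, a T-box factor that was low on all wild type arrays, had 3.58, 3.44 and 3.41 on Matrigel and 3.65, 3.55 and 3.90 on gelatin, a difference of -0.23 ± 0.11, against -1.41 ± 0.11 in Fz4-/- cells (adjusted p of the difference = 0.0359). The other Tbx18 probe set was at 0.38 in wild type cells, with overlapping groups. The Tbx18 call was lost in 12 alternatives. Among them were the fits without Fz4-/- Matrigel replicate 2 (1.11, 0.14) or 3 (1.17, 0.131), without Fz4-/- gelatin replicate 1, 2 or 3 (0.0876, 0.147 and 0.13), and after median centring (0.0883). The number of genes was 5 without Fz4-/- Matrigel replicate 1 or wild type gelatin replicate 3, 8 with the replicate number as a block and 16 with all 24 arrays. Several of the largest wild type changes had a small difference in Fz4-/- cells without passing this test. Six4 rose by 1.54 ± 0.16 in wild type cells and differed by 0.12 ± 0.16 in Fz4-/- cells (adjusted p of the difference = 0.108), Evi2a by 1.53 ± 0.14 and 0.30 ± 0.14 (0.108), and Nppb by -1.80 ± 0.19 and -0.27 ± 0.19 (0.175). In Fz4-/- cells Six4 was low on Matrigel and gelatin (3.9 and 3.8), against 6.8 and 5.2 in wild type cells. Evi2a was also low there (3.7 and 3.4), against 7.5 and 6.0. Whether low levels limit these differences was not tested.

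**Figure D5:**
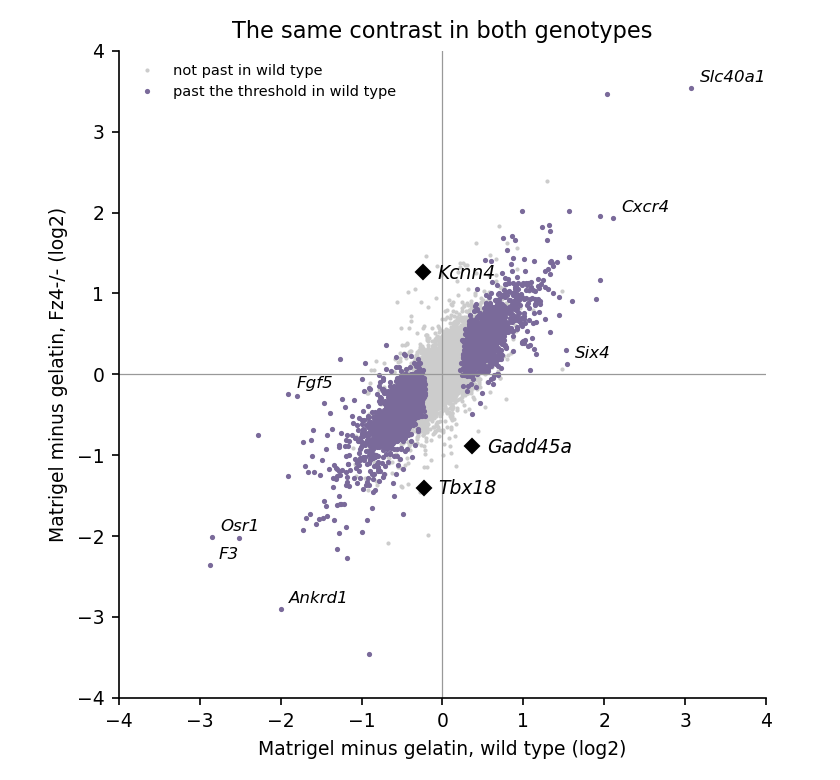
The Matrigel minus gelatin difference (log2) of each gene in wild type cells (horizontal axis) is plotted against that in Fz4-/- cells (vertical axis), with genes past the threshold in wild type in purple and the 3 genes whose response differed between genotypes as black diamonds. Slc40a1 and Cxcr4 lie at the upper right, F3, Osr1 and Ankrd1 at the lower left, and Six4 and Fgf5 near the horizontal axis.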

How the data were processed

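RNA from 24 samples was measured on Affymetrix mouse expression arrays, 1 sample per array. The deposited values are log2 signals made by the authors with RMA, per the submitters' processing notes, with no version given. Which arrays were normalized together is not given in the sources used here, and array number rather than depth limits the precision. Of 45101 probe sets, 64 controls were left out. A single gene symbol was given for 34945, several for 932 and none for 9160 of the rest. Each of 18193 genes was read from 1 probe set, that with the highest mean signal among those with 1 symbol.

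A linear model with 4 groups (wild type and Fz4-/- cells, each on Matrigel and on gelatin, 12 arrays, 8 residual degrees of freedom) was run in limma 3.58.1 (R 4.3.3) with Benjamini-Hochberg adjustment over all genes and a threshold of 0.05. An exact permutation test of 3 against 3 arrays cannot go below p = 0.1. Alternatives changed the scaling, the probe set choice, the arrays fitted, the variance model, the level and fold minimum, the replicate block and each array in turn.

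Same-numbered Matrigel and gelatin arrays deviated together from their group means (r = 0.72, 0.38 and 0.37 over genes for replicates 1, 2 and 3), each r over 0.1. The replicate numbers of the labels were therefore used as a block in an alternative fit. The main fit and its p-values are unpaired. An array correlated best with the array of its own number in only 2 of 6 checks. Replicates 2 and 3 with unlike numbers correlated more (r = 0.47 and 0.50), and replicate 1 with the others at -0.57 to -0.53, so the data set replicate 1 apart and do not tell 2 from 3. The 46 lists hold 984 genes, of which 939 were measured, and 1 list is not reported here. Members and lists were chosen with earlier results of these data known. Genes named are the 15 largest rises and 15 largest falls that passed without overlap between the groups, and 22 genes chosen by name. Some of the up to 8 leading genes of each list are also named, not always the largest. So are the genes whose response differed between genotypes, and list members shown to hold a motif. List members that did not pass are given by value, and others are said to be chosen after their values were seen. Sequences are RefSeq's on GRCm38.p6, and the TGACNNNGC search was added after the data were seen.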

Additional observations from a re-analysis of the deposited data

Results flagged for a closer look

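The Matrigel minus gelatin difference was not the same in both genotypes for 3 genes, by the limma test of the difference itself (adjusted p below 0.05 over 18193 genes). The wild type response minus the Fz4-/- response was -1.50 for Kcnn4, 1.26 for Gadd45a and 1.18 for Tbx18 on the log2 scale. The call was lost in 12 alternatives for Tbx18, and in 1 each for Kcnn4 and Gadd45a.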

How the results depend on the processing

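With 1 array left out at a time, 2137 to 2731 genes passed, 773 to 974 of them higher and 1358 to 1789 lower, and 2 to 5 genes differed between genotypes. The falls then numbered 14 to 20 in the actin and SRF list, 9 to 10 in the YAP list, 7 to 8 in the ERK list, 15 to 20 in the MYC list and 8 to 11 among growth factors. The rises numbered 7 to 8 in the NRF2 list and 4 to 7 in the FoxO list. Restricting the test to genes above the median level gave 1235 genes (342 higher, 893 lower), 6 falls among growth factors and 5 rises in the FoxO list. A 2-fold minimum gave 182 genes (81 higher, 101 lower), with 5 falls in the actin list, 6 in the YAP list, 2 in the ERK list, 0 in the MYC list and 5 among growth factors, and 5 rises in the NRF2 list and 2 in the FoxO list. Averaging replicates 2 and 3 gave 574 genes (208 higher, 366 lower) and 0 genotype differences, with 4, 4, 3, 7 and 3 falls in those 5 lists and 1 rise each in the NRF2 and FoxO lists. Leaving out replicate 1 of every group gave 5088 genes, 1933 higher, 61 genotype differences and 13 rises each in the NRF2 and FoxO lists. The number of genotype differences was 5 when a gene's probe sets were averaged and 16 with all 24 arrays.

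With the replicate number as a block, 4796 genes passed, 3354 of them called in the same direction without it, and 8 differed between genotypes. That pairing is an assumption, since the data set replicate 1 apart but do not tell 2 from 3. Of the genes named, Srf, Cldn5 and Glul did not pass in the main fit and passed with the block (Glul rose by 0.28), and none lost its call. Srf and Cldn5 also passed in other alternatives, as given above. List counts that the block moved by over 1.5 times stand in the report. Smaller moves gave 21 falls in the actin list, 11 each in the YAP and ERK lists and 14 among growth factors, and 12 rises in the NRF2 list and 11 in the FoxO list. With only the 6 wild type arrays 2765 genes passed. Of 2758 pairs of a named result and an alternative, 2568 kept the side of the threshold, 170 lost the call, 20 gained it and 0 reversed a called value. The 2568 include 38 pairs that changed sign and were called in neither fit. The causes were not tested. Extract, serum, replating and time cannot be told apart, and 3 arrays per group of unstated origin limit the precision.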

Other observations

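Of the 63 genes among the 113 called and named that have other probe sets, those sets numbered 104. Of these, 99 had the same sign as the probe set used, 81 of them with no overlap between the Matrigel and gelatin arrays, and 2 went the other way with no overlap.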
